A study of Mus musculus with 48 samples.

Results

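Neutrophils are the first white blood cells to reach injured tissue, and 10 genes that mark them or call them in were followed here through 48 mouse sarcomas. They are 10 of the 36854 genes in the counts table, taken by matching Ensembl identifiers to their symbols in the GENCODE M21 annotation, and all 10 had counts in every tumour and passed the filter on low counts in every fit. There were 5 neutrophil genes and 5 genes of attractants. S100a8 and S100a9 encode the subunits of calprotectin, a metal-binding protein that fills neutrophil cytosol. Csf3r encodes the receptor for the granulocyte growth factor G-CSF, Cxcr2 the main chemokine receptor of neutrophils, and Retnlg a resistin-like secreted protein of neutrophils. Csf3 encodes G-CSF itself, and Cxcl1, Cxcl2, Cxcl3 and Cxcl5 encode chemokines that bind Cxcr2.

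All tumours grew in the gastrocnemius muscle of mice on a 129/SvJae background. The 32 primary tumours arose in p53FL/FL mice between 6 and 10 weeks old, in which an adenovirus carrying Cre recombinase was injected into the muscle to delete floxed p53, followed by 300 µg of the carcinogen MCA (3-methylcholanthrene); the virus acts in whichever cells it enters. The 16 allografts each grew from 50000 cells of 1 p53/MCA tumour line placed in the same muscle of syngeneic mice, so they share 1 origin. At a volume of about 150 mm3 each mouse received 200 µg of an isotype control antibody or of muDX400, a murine antibody against PD-1, a checkpoint receptor of T cells, and then 0 or 20 Gy of X-rays to the whole hind limb. Tumours were taken on day 3. Both kinds thus fell into 4 groups, namely 0 Gy with isotype, 0 Gy with anti-PD-1, 20 Gy with isotype and 20 Gy with anti-PD-1, with 4 allografts or 8 primary tumours in each. The comparisons ask how radiation, PD-1 blockade, their combination and the kind of tumour bear on the expression of these genes 3 days later.

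Neutrophils form in bone marrow under the control of G-CSF, enter the blood, and follow gradients of CXC chemokines that are sensed by Cxcr2. Macrophages, endothelium, fibroblasts and tumour cells make these chemokines when inflammatory signals such as interleukin-1 or TNF activate the transcription factor NF-kappaB. In tumours neutrophils can harm cancer cells or restrain T cells, depending on the setting. Neutrophils hold little RNA, and Csf3r, S100a8 and S100a9 are also made by some monocytes. In bulk tissue fewer cells of a type and less RNA per cell cannot be told apart.

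The 4 chemokine genes lie side by side on mouse chromosome 5 (GENCODE M21, build GRCm38, plus strand). Cxcl5 lies at chr5:90759360-90761624, Cxcl3 at chr5:90786103-90789600, Cxcl1 at chr5:90891241-90893115 and Cxcl2 at chr5:90903871-90905938. Cxcl1, Cxcl2 and Cxcl3 were the attractants that were called higher after irradiation of primary tumours, so their upstream sequence is shown (RefSeq promoter table, GRCm38.p6). Each stretch holds 120 bases, from 150 to 31 bases before the RefSeq start, read 5′ to 3′ on the plus strand. Capitals mark the longest run of bases that all 3 promoters share, 11 bases, a match to the NF-kappaB motif that was picked out after the sequences were seen.
Cxcl3, chr5:90785951-90786070: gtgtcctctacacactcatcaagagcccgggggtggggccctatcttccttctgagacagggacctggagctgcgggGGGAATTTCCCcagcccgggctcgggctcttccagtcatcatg
Cxcl1, chr5:90891095-90891214: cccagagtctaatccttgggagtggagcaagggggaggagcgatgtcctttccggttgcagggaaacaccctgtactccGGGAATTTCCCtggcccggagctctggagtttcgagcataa
Cxcl2, chr5:90903749-90903868: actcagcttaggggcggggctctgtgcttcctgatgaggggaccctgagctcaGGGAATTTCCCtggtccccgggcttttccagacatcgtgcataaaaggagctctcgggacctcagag

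The run starts 73 bases before the start of Cxcl3, 71 before that of Cxcl1 and 97 before that of Cxcl2. Among all 32851 promoters of 300 bases (250 before and 50 after the start) it stood in 14, or 0.0426%. A looser NF-kappaB pattern, GGG and CC parted by 5 bases of any kind and searched, like those that follow, on both strands, were in 5 of the 8 promoters found for these genes (Cxcr2, Csf3r, Cxcl1, Cxcl2 and Cxcl3) and in 50.8% of all promoters, close to the share in those 8. The C/EBP-like letters TTGCNNAA were in 2 of the 8 (S100a9 and Retnlg) against 10.8% of all, TTGCNNNAA in 3 of the 8 (Csf3r, Cxcl1 and Retnlg) against 9.56%, and the ETS-like letters GAGGAAGT in 1 of the 8 (S100a8) against 3.2%. Some of these matches overlap: those to TTGCNNAA and TTGCNNNAA in Retnlg start 1 base apart. Csf3 and Cxcl5 had no entry.

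Libraries held 31.8 to 54.01 M counts (median 41.2 M), and levels are counts per M counts, scaled by TMM (CPM). A gene is called here when its Benjamini-Hochberg adjusted p over all genes of edgeR's quasi-likelihood test is below 0.05. Trp53, targeted in the primary tumours, was at 20.2 to 60.7 CPM there and 25.7 to 45.8 CPM in the allografts; a count over the whole gene, in tissue with host cells, does not check the deletion. Of the other neutrophil markers, Ly6g, the usual surface marker, was low throughout, between 0 and 3.06 CPM, and Mpo, a protein of early granules, had medians above 1 CPM in the 4 allograft groups and in the primary 20 Gy anti-PD-1 group only.

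In primary tumours 3 libraries were the highest of their group in 9 or all 10 of these genes, and 1 allograft was so in 4 neutrophil genes. In the primary 0 Gy anti-PD-1 group all 10 genes had their highest level in tumour 4, with S100a8 at 91.2 CPM against 0.389 to 4.66 CPM in the other 7. In the primary 20 Gy isotype group all 10 were highest in tumour 3, and in the primary 20 Gy anti-PD-1 group 9 of the 10 were highest in tumour 6, the exception being Csf3r. The gap test given at the end flagged that tumour 4 in 2 of the 10 genes and that tumour 3 in 1, and did not flag that tumour 6. Among the allografts, tumour 3 of the 0 Gy anti-PD-1 group was the highest of its group in 4 of the 10 genes (S100a8, S100a9, Csf3r and Retnlg), with an attractant sum of 34.6 CPM inside the 11.8 to 61.9 CPM of its group. It held 215 CPM of S100a8 and 266 CPM of S100a9, together with 64.2 CPM of Mpo, 164 CPM of Ngp, a protein of late granules, and 21.2 CPM of Epx, a protein of eosinophil granules that was at or below 0.856 CPM in the other 47 tumours. Markers of red cells, 5 globin and heme genes, summed to 729 CPM in that primary tumour 4 against 21.5 to 337 CPM in the other 7 of its group, and to 1045 CPM in that allograft, the highest of all 48. In tumour 3 of the primary 20 Gy isotype group they were at 395 CPM, next to the highest of its group, and in tumour 6 of the primary 20 Gy anti-PD-1 group at 59.5 CPM, the lowest of its group. The part of blood in these levels was not tested. For the differences that these tumours moved most, values without them are given beside each gene.

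The spread was wide, and wider in primary tumours. S100a8 ranged from 0.301 to 200 CPM over the 32 primary tumours and from 1.61 to 215 CPM over the 16 allografts. Cxcl5 ranged from 0.167 to 175 CPM in the primary tumours and only from 7.09 to 50.7 CPM in the allografts. Csf3r varied least among the neutrophil genes, from 9.30 to 187 CPM in primary tumours and from 30.4 to 212 CPM in allografts. Per kilobase of exon, S100a9 had the highest median level of the 10 genes in 6 of the 8 groups, and Csf3 had the lowest in 7. In unirradiated primary tumours with isotype the median levels per kilobase ran from 10.96 CPM for S100a9 through 5.77 for S100a8, 5.18 for Csf3r, 2.77 for Cxcl1, 1.65 for Cxcl5, 0.807 for Retnlg, 0.438 for Cxcl2, 0.349 for Cxcr2 and 0.278 for Csf3 to 0.168 for Cxcl3. Compared within each tumour, S100a9 was above S100a8 per kilobase in all 8, by a ratio of 1.10 to 3.41. For each of the other neighbours in this order the ratio was above 1 in some tumours and below 1 in others, with the gene of higher median above the next in 4 to 7 of the 8, so their order did not hold in every tumour.

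Csf3r also differed from the other neutrophil genes in its lowest level. In the 7 tumours with S100a8 below 1 CPM, all primary, Cxcr2 was at most 0.584 CPM and Retnlg at most 0.352 CPM, yet Csf3r stood at 9.30 to 30.2 CPM. The plot of the 5 neutrophil genes by tumour shows this floor of Csf3r and the high tumours named above.

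**Figure D1:**
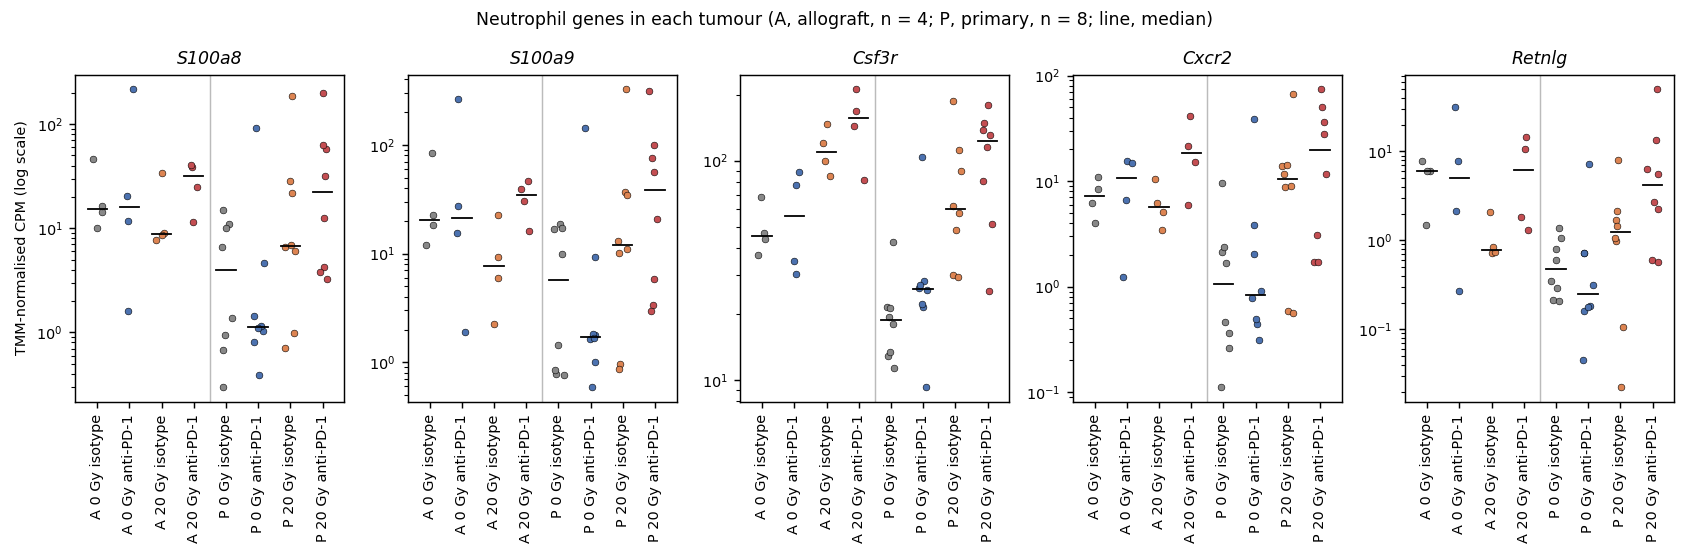
TMM-normalised CPM (log axis) of the 5 neutrophil genes in each tumour by group; A stands for allograft (n = 4 a group), P for primary (n = 8), each point is a tumour and each line a group median. The medians of Csf3r are higher at 20 Gy than at 0 Gy with each antibody, and single tumours stand high in S100a8, S100a9 and Cxcr2.

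Radiation raised Csf3r in primary tumours whichever antibody was given. With isotype, Csf3r ran from 11.3 CPM through a median of 18.7 to 42.5 CPM at 0 Gy, and from 29.4 through 59.9 to 187 CPM at 20 Gy. After irradiation 6 of 8 tumours lay above the highest unirradiated one. The difference was 1.96 ± 0.43 on the log2 scale (SE, a 3.89-fold rise, adjusted p = 0.00248). With anti-PD-1 the levels ran from 9.30 through 26.1 to 103.5 CPM at 0 Gy and from 25.3 through 122.96 to 179 CPM at 20 Gy, a rise of 1.73 ± 0.43 (adjusted p = 0.0124). This call and the one with isotype held in all 23 alternative fits of each, among them the 16 that left out 1 tumour.

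S100a8 and S100a9 also had positive differences in primary tumours but were not called, and their irradiated tumours scattered widely. With isotype S100a8 ran from 0.301 through a median of 4.01 to 15.1 CPM at 0 Gy and from 0.703 through 6.78 to 185 CPM at 20 Gy, a difference of 2.50 ± 1.20 (adjusted p = 0.165). S100a9 had medians of 5.72 and 11.9 CPM and a difference of 2.72 ± 1.26 (adjusted p = 0.146). For both genes 3 of the 8 irradiated tumours lay above the highest unirradiated one and the groups overlapped. Without tumour 3 of the irradiated group the differences were 0.88 for S100a8 (adjusted p = 0.668) and 0.93 for S100a9 (adjusted p = 0.657).

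With anti-PD-1 the medians of the calprotectin genes lay further apart. S100a8 ran from 0.389 through 1.12 to 91.2 CPM at 0 Gy and from 3.26 through 22.1 to 200 CPM at 20 Gy, and S100a9 had medians of 1.71 and 38.7 CPM. All 8 irradiated tumours were above the median of the unirradiated group for both genes, while only 1 exceeded the high tumour 4 of that group. The differences were 1.90 ± 1.17 (adjusted p = 0.341) and 1.85 ± 1.21 (adjusted p = 0.376). Without that tumour 4 they were 4.98 (adjusted p = 0.00927) and 4.84 (adjusted p = 0.0153), and without tumour 6 of the irradiated group they were 1.002 (adjusted p = 0.658) and 0.91 (adjusted p = 0.705), so the size and the call of both genes turned on single tumours.

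Cxcr2, the receptor of the chemokines described here, was low in unirradiated primary tumours. With isotype it ran from 0.113 through 1.07 to 9.51 CPM at 0 Gy and from 0.567 through 10.4 to 67.2 CPM at 20 Gy (difference 2.92 ± 1.10, adjusted p = 0.071; 2.03, adjusted p = 0.231, without tumour 3 at 20 Gy). With anti-PD-1 it ran from 0.311 through 0.841 to 39.0 CPM and from 1.70 through 19.9 to 73.9 CPM (difference 2.12 ± 1.06, adjusted p = 0.221). Without tumour 4 at 0 Gy that difference was 4.37 and called (adjusted p = 0.0104), and without tumour 6 at 20 Gy it was 1.67 (adjusted p = 0.365). Set against 0 Gy with isotype, the combined treatment raised Cxcr2 by 3.62 ± 1.13 (a 12.3-fold rise, adjusted p = 0.0303), with 5 of 8 tumours above every control. Without tumour 6 of the combined group the difference was 3.18 (adjusted p = 0.0581).

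Retnlg reached its highest levels in primary tumours that had both treatments. It ran from 0.207 through 0.478 to 1.39 CPM at 0 Gy with isotype, from 0.0458 through 0.247 to 7.21 CPM at 0 Gy with anti-PD-1, from 0.0227 through 1.24 to 8.05 CPM at 20 Gy with isotype, and from 0.568 through 4.19 to 49.8 CPM at 20 Gy with anti-PD-1. With isotype 4 of 8 irradiated tumours lay above and 2 below the whole control range, and the difference of 1.67 ± 0.96 was not called (adjusted p = 0.251; 0.84, adjusted p = 0.622, without tumour 3 at 20 Gy). With anti-PD-1 radiation raised it by 3.11 ± 0.998 (adjusted p = 0.0499), a call that stood in only 8 of 23 alternative fits; without tumour 6 of the irradiated group the difference was 1.94 (adjusted p = 0.1995), and without tumour 4 at 0 Gy 4.95 (adjusted p = 0.00277). Against 0 Gy with isotype the combined treatment raised it by 4.06 ± 1.05 (16.7-fold, adjusted p = 0.00919), with 6 of 8 tumours above every control. This call stood in all 23, but without tumour 6 of the combined group the difference was 2.89 (adjusted p = 0.0417).

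Of the 5 neutrophil genes 1 was called higher in primary tumours after radiation with isotype, 2 with anti-PD-1 (Csf3r and Retnlg) and 3 after the combined treatment (Csf3r, Cxcr2 and Retnlg). Over all genes tested, 7.85% were called higher in the first of these comparisons, 6.06% in the second and 8.78% in the third.

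Csf3r was also the single neutrophil gene called in treated allografts, with anti-PD-1 and for the combination. At 0 Gy with isotype the 4 allografts held 37.1, 46.8, 67.9 and 43.8 CPM, and at 20 Gy with isotype 84.9, 99.5, 148 and 120 CPM. The groups did not overlap, but the difference of 1.23 ± 0.36 missed the threshold (2.35-fold, adjusted p = 0.0603); in a fit without tumour 3 of the 0 Gy anti-PD-1 group it was 1.24 (adjusted p = 0.0452). At 0 Gy with anti-PD-1 the levels were 77.3, 34.7, 88.7 and 30.4 CPM, and at 20 Gy with anti-PD-1 81.9, 212, 169 and 144.4 CPM, a rise of 1.41 ± 0.36 between groups that overlapped (adjusted p = 0.0405; 1.71, adjusted p = 0.0212, without tumour 3 at 0 Gy). The combined treatment raised it by 1.63 ± 0.36 over 0 Gy with isotype (3.09-fold, adjusted p = 0.0105), without overlap. The call with anti-PD-1 stood in 9 of 15 alternative fits and that of the combination in 14 of 15.

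With isotype the other neutrophil genes did not go with Csf3r in the allografts. Retnlg was at 1.48, 6.07, 7.74 and 5.99 CPM at 0 Gy with isotype and at 0.720, 2.07, 0.740 and 0.836 CPM at 20 Gy with isotype. Of the irradiated allografts 3 lay below all 4 controls, while the difference of -2.26 ± 1.07 was not called (adjusted p = 0.282). S100a9 went from 11.9, 18.4, 83.4 and 22.5 CPM to 22.8, 5.90, 9.32 and 2.25 CPM (difference -1.75 ± 1.08, adjusted p = 0.428). S100a8 had medians of 15.3 and 8.80 CPM and Cxcr2 of 7.25 and 5.68 CPM (adjusted p = 0.837 and 0.924). With anti-PD-1, S100a8 and S100a9 had medians of 15.96 and 21.4 CPM at 0 Gy and 31.8 and 34.9 CPM at 20 Gy (adjusted p = 0.591 and 0.565), and Cxcr2 had medians of 10.7 and 18.4 CPM (adjusted p = 0.352). With tumour 3 of the 0 Gy anti-PD-1 group the fitted differences of S100a8, S100a9 and Retnlg were negative. Without it S100a8 was at 1.41, S100a9 at 1.20, Cxcr2 at 1.47 and Retnlg at 1.09, in the direction of Csf3r and not called (adjusted p = 0.281 to 0.577). After the combined treatment 3 of 4 allografts had more Cxcr2 than any at 0 Gy with isotype (adjusted p = 0.171).

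Thus 0 of the 5 neutrophil genes were called in allografts irradiated with isotype, where 4.40% of all genes were called higher. At an unadjusted p below 0.05 there were 2 of the 10 genes, Csf3r and Csf3, beside 3222 of all 17746 genes tested, a like share. The DESeq2 test called 1 of the 10, Csf3r. With anti-PD-1 it was 1 of 5 against 3.13% of all genes, and after the combined treatment 1 of 5 against 7.43%. Each of the latter counts is Csf3r alone.

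Of the attractants, Cxcl2 showed the plainest change with radiation in primary tumours. With isotype Cxcl2 ran from 0.286 CPM through a median of 0.905 to 6.83 CPM at 0 Gy, and from 2.81 through 10.6 to 92.3 CPM at 20 Gy. All 8 irradiated tumours lay above the median of the controls and 5 above the highest. The rise was 3.25 ± 0.90 on the log2 scale (9.49-fold, adjusted p = 0.0143). With anti-PD-1 it ran from 0.476 through 0.950 to 8.85 CPM and from 1.45 through 9.91 to 102.1 CPM, a rise of 3.25 ± 0.90 (adjusted p = 0.0236). Leaving out 1 tumour ended each of these calls: without tumour 3 of the 20 Gy isotype group the first was 2.13 (adjusted p = 0.0871), and without tumour 6 of the 20 Gy anti-PD-1 group the second was 2.07 (adjusted p = 0.113). Without tumour 4 of the 0 Gy anti-PD-1 group the second was 4.07 (adjusted p = 0.00786).

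Cxcl1, like Cxcl2 a chemokine made early in inflammation, lay above the control median in all 8 primary tumours irradiated with isotype. It ran from 2.29 through 5.19 to 46.0 CPM at 0 Gy with isotype and from 15.7 through 30.0 to 89.7 CPM at 20 Gy. The difference of 1.67 ± 0.71 was not called (adjusted p = 0.112; 1.35, adjusted p = 0.241, without tumour 3 at 20 Gy). With anti-PD-1 it ran from 1.89 through 4.16 to 39.2 CPM and from 2.39 through 32.8 to 163 CPM, a rise of 2.34 ± 0.72 (5.05-fold, adjusted p = 0.0415). That call stood in 11 of 23 alternative fits. Without tumour 6 at 20 Gy the difference was 1.66 and not called (adjusted p = 0.137), and without tumour 4 at 0 Gy it was 3.28 (adjusted p = 0.005).

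Cxcl3, a close relative of Cxcl2, was the attractant with the largest fold in the combined treatment. It ran from 0.0953 through 0.587 to 6.59 CPM at 0 Gy with isotype and from 0.744 through 8.17 to 49.0 CPM at 20 Gy with isotype (difference 2.78 ± 1.02, adjusted p = 0.0649; 1.96, adjusted p = 0.215, without tumour 3 at 20 Gy). With anti-PD-1 it ran from 0.761 through 1.18 to 14.2 CPM at 0 Gy and from 1.28 through 9.22 to 188 CPM at 20 Gy, a rise of 3.36 ± 1.04 (adjusted p = 0.0416) that stood in 11 of 23 alternative fits. Without tumour 6 at 20 Gy this difference was 1.53 and not called (adjusted p = 0.307), and without tumour 4 at 0 Gy it was 4.43 (adjusted p = 0.0116). The combined treatment raised it by 4.14 ± 1.08 over 0 Gy with isotype (17.7-fold, adjusted p = 0.0101) and Cxcl2 by 3.36 ± 0.91 (10.2-fold, adjusted p = 0.0127). Without tumour 6 of the combined group neither was called (Cxcl3 2.30, adjusted p = 0.0844, and Cxcl2 2.17, adjusted p = 0.0686). Among the attractants Cxcl5 then had the largest difference, 2.73 (adjusted p = 0.108), so the rank of Cxcl3 rested on that tumour.

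Cxcl5, a ligand known from stromal and epithelial cells, and Csf3 were called in none of the 3 treated groups of primary tumours by edgeR. Cxcl5 ran from 0.167 through 3.07 to 44.1 CPM at 0 Gy with isotype and from 3.54 through 32.7 to 175 CPM after the combined treatment (difference 3.08 ± 1.13, adjusted p = 0.0637; 2.73, adjusted p = 0.108, without tumour 6 of the combined group). With anti-PD-1 radiation gave a difference of 1.55 ± 1.06 (adjusted p = 0.4), which was 3.93 and called without tumour 4 at 0 Gy (adjusted p = 0.0195) and 1.20 without tumour 6 at 20 Gy (adjusted p = 0.553). For the combined treatment against 0 Gy with isotype the DESeq2 test called 9 of the 10 genes, Cxcl5 among them and Csf3 left out. The share of all genes called by that test is not given here, and the shares printed are those of edgeR. Csf3, the gene of G-CSF, was below 1 CPM in 21 of 32 primary tumours. Its difference with radiation was -0.16 ± 0.95 with isotype (adjusted p = 0.929) and 0.85 ± 0.94 with anti-PD-1 (adjusted p = 0.641), and 1.76 ± 0.96 for the combination (adjusted p = 0.222; 0.53, adjusted p = 0.74, without tumour 6). Without tumour 4 at 0 Gy the difference with anti-PD-1 was 3.31 and called (adjusted p = 0.0171), and without tumour 6 at 20 Gy it was -0.39 (adjusted p = 0.845). For radiation with anti-PD-1 the DESeq2 test called 6 of the 10 genes, Csf3 among them and Cxcl5 left out.

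**Figure D2:**
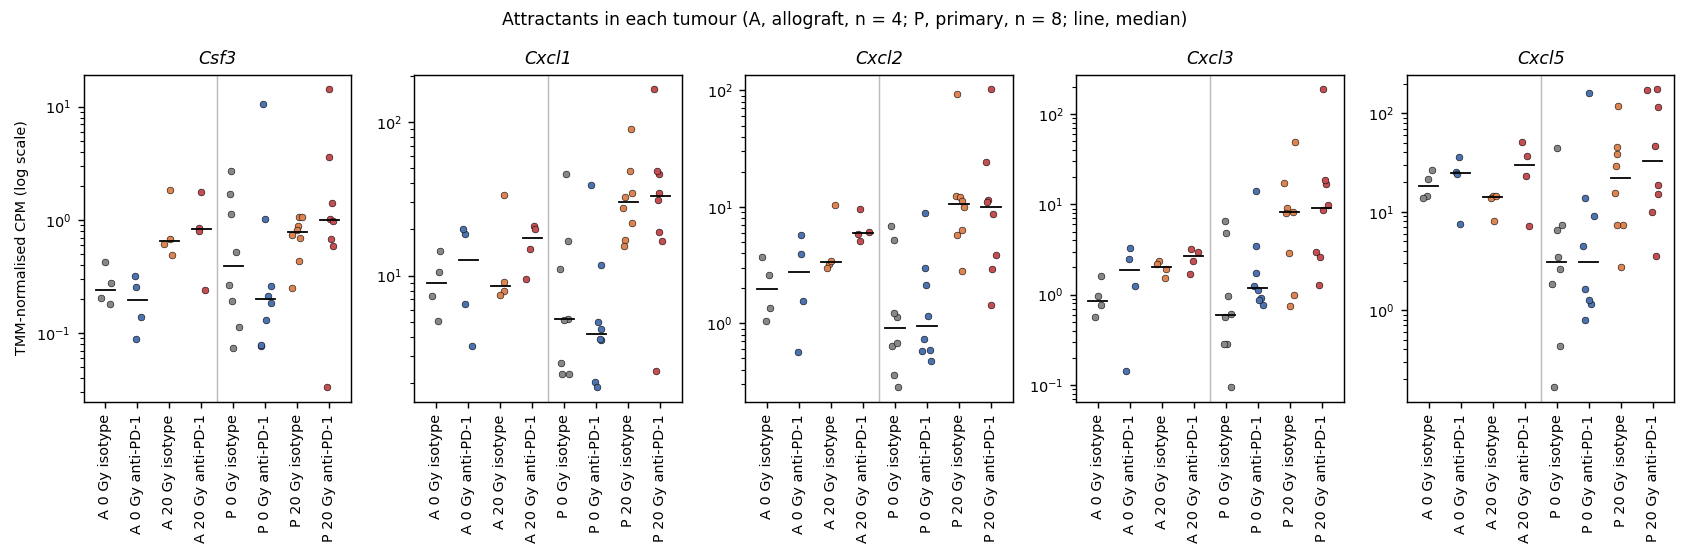
TMM-normalised CPM (log axis) of Csf3 and the 4 chemokines in each tumour by group; A stands for allograft (n = 4 a group), P for primary (n = 8), each point is a tumour and each line a group median. In primary tumours the median of Cxcl2 goes from 0.905 to 10.6 CPM with isotype, while Csf3 stays below 1 CPM in most tumours.

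Counted together, 1 of the 5 attractants was called higher in primary tumours after radiation with isotype (Cxcl2), 3 with anti-PD-1 (Cxcl1, Cxcl2 and Cxcl3) and 2 after the combined treatment (Cxcl2 and Cxcl3). Over all 10 genes the counts were 2, 5 and 5, beside 7.85%, 6.06% and 8.78% of all genes called higher. Leaving out the 3 primary tumours named above together, a choice made after their values were seen, gave 2 (Csf3r and Cxcl2), 9 (all but Csf3) and 5 (Csf3r, Cxcr2, Retnlg, Cxcl2 and Cxcl3). With the first digit of the animal identifier as a covariate the counts were 2, 2 (Csf3r and Cxcl2) and 5. The shares of all genes above belong to the main fit, and those of these refits are not given here. Leaving out 1 tumour at a time moved the count with anti-PD-1 between 1 and 10, so its 5 rests on single tumours.

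In the allografts 0 of the 5 attractants were called by edgeR in any treated group, where 4.40%, 3.13% and 7.43% of all genes were called higher, so a count of 0 among 5 genes is near the background. Csf3 came nearest. It was at 0.429, 0.275, 0.203 and 0.179 CPM at 0 Gy with isotype and at 1.83, 0.617, 0.493 and 0.684 CPM at 20 Gy with isotype, with no overlap between the groups (difference 1.75 ± 0.59, adjusted p = 0.107). With anti-PD-1 it was at 0.321, 0.0894, 0.138 and 0.254 CPM at 0 Gy and at 0.858, 0.242, 0.803 and 1.78 CPM at 20 Gy (difference 2.24 ± 0.60, adjusted p = 0.0507). The DESeq2 test called Csf3 with anti-PD-1 and in the combination (difference by edgeR 1.77 ± 0.59, adjusted p = 0.0719). The direction of Csf3 in the allografts is set beside that in the primary tumours in the plot of differences; the test of the difference between the kinds did not call it (adjusted p = 0.631 with isotype).

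Cxcl2 in the allografts was at 3.75, 2.59, 1.06 and 1.37 CPM at 0 Gy with isotype and at 6.13, 5.14, 9.54 and 5.82 CPM at 20 Gy with anti-PD-1. Those 2 groups did not overlap, and the difference was 1.61 ± 0.61 (adjusted p = 0.113), called by the DESeq2 test. Its differences with radiation were 1.21 ± 0.60 with isotype (adjusted p = 0.307) and 1.20 ± 0.60 with anti-PD-1 (adjusted p = 0.285). Cxcl1, Cxcl3 and Cxcl5 had adjusted p of 0.157 to 0.718 in the treated allografts.

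**Figure D3:**
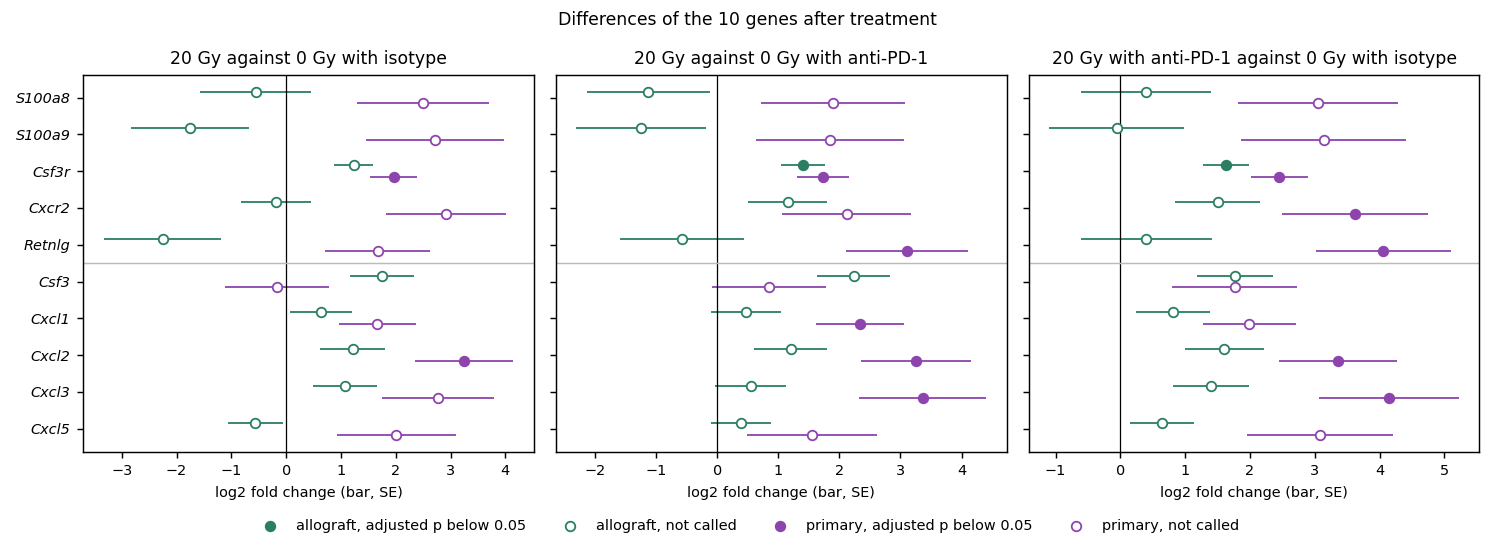
Log2 fold changes with SE (bars) of the 10 genes for the 3 treated comparisons in allografts (green) and primary tumours (purple); filled points have an adjusted p below 0.05. Csf3r lies to the right of 0 in all 6, at 1.23 to 2.45, while S100a8, S100a9 and Retnlg, among others, lie on different sides of 0 in the kinds after 20 Gy with isotype.

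The effect of the antibody alone was not called for any of the 10 genes by edgeR. At 0 Gy every adjusted p rounded to 1 in both kinds, and 0 of 10 genes were below an unadjusted p of 0.05. At 20 Gy the unadjusted p was below 0.05 for Cxcr2, Retnlg and Cxcl5 in the allografts and for Retnlg in the primary tumours. Retnlg was the gene that leaned furthest to anti-PD-1 in both kinds: at 20 Gy the 4 allografts with anti-PD-1 held 1.33, 14.6, 10.7 and 1.83 CPM, a difference from isotype of 2.66 ± 1.09 (adjusted p = 0.682), and in primary tumours the difference was 2.39 ± 0.97 (adjusted p = 0.596). The interaction of dose and antibody was called for 0 of 10 genes in either kind, with 0 at an unadjusted p below 0.05. DESeq2 called 0 in all these comparisons. The background was as low: 0.00% of all genes were called for the antibody at either dose or for the interaction, in allografts and in primary tumours, with 269 to 1443 genes at an unadjusted p below 0.05.

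Without radiation or anti-PD-1, 2 of the 5 neutrophil genes were lower in primary tumours than in allografts. At 0 Gy with isotype Retnlg was at 0.207 to 1.39 CPM in the 8 primary tumours and at 1.48 to 7.74 CPM in the 4 allografts, with no overlap (difference -3.13 ± 0.54, adjusted p = 0.0041). Csf3r was at 11.3 to 42.5 CPM in primary tumours and 37.1 to 67.9 CPM in allografts (difference -1.29 ± 0.31, adjusted p = 0.0223), and 7 of the 8 primary tumours lay below every allograft. The Csf3r call was lost on leaving out allograft 2 (-1.31, adjusted p = 0.0595), allograft 3 (-1.09, adjusted p = 0.0765) or allograft 4 (-1.33, adjusted p = 0.0545) and stood in 13 of 17 alternative fits, that of Retnlg in 16 of 17. These 2 of 10 genes were called lower, against 3.99% of all genes. S100a8 (-1.94 ± 0.85, adjusted p = 0.169), S100a9 (-2.05 ± 0.90, adjusted p = 0.171) and Cxcr2 (-1.80 ± 0.89, adjusted p = 0.22) were not called. The 5 attractants were not called in either direction, with adjusted p of 0.279 to 0.945. Of other cells' markers 4 of 7 T cell genes were called lower in primary tumours and 3 of 7 mesenchymal genes higher, beside 3.99% of all genes called lower and 6.03% called higher. Of 4 eosinophil genes Siglecf (-2.44 ± 0.48) and Prg2 (-3.00 ± 0.80) were called lower, of 11 monocyte and macrophage genes Ccr2 lower (-1.06 ± 0.31) and Mrc1 higher (1.43 ± 0.31), and of 8 keratinocyte genes Dsc3 higher. The part of these cells in the result was not tested. The first digit of the animal identifier differs between the kinds, so that digit and the kind of tumour cannot be told apart. In the fit of all 48 tumours neither gene was called (adjusted p = 0.0518 for Retnlg and 0.0577 for Csf3r).

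Whether radiation acted on these genes differently in the kinds of tumour was tested by the interaction of kind and dose. The interaction was called for 0 of 10 genes by edgeR and by DESeq2 with either antibody; 0.00517% of all genes were called with isotype, which is a single gene, and 0.00% with anti-PD-1. With isotype it was largest for S100a9, at 4.45 ± 2.00 (adjusted p = 0.487), and Retnlg, at 3.93 ± 1.62 (adjusted p = 0.478), the only 2 of the 10 with an unadjusted p below 0.05. With anti-PD-1 only Retnlg was below that level (3.65 ± 1.59, adjusted p = 0.968). The opposite directions of these genes in the kinds were therefore not shown to differ.

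Pooled over the primary groups, the 10 genes went up and down together among tumours of the same treatment. Over the 32 primary tumours, after each group's mean was subtracted from log2 CPM, Pearson's r was positive for all 45 pairs of genes and ran from 0.35 to 0.99. Shuffling tumours within groups (100000 permutations) gave an adjusted p below 0.05 for 44 of the 45 pairs, the exception being Csf3r with Csf3. Fewer pairs passed without the 2 tumours farthest from the median, as given at the end. Within single groups some r were negative, down to -0.282 for Cxcr2 with Csf3. All values come from the same libraries, and the points share each tumour's depth and cell mixture.

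The closest pair was S100a8 and S100a9, whose proteins form 1 complex, with r = 0.991 and Spearman's rho = 0.988 (permutation adjusted p = 1.96e-05 and 2.14e-05, from the smallest p the permutations can give, 1e-05). Cxcr2 went with S100a8 at r = 0.935 (rho = 0.931) and with S100a9 at r = 0.949 (rho = 0.94), with the same adjusted p. Among the attractants Cxcl1 and Cxcl2 were closest, with r = 0.899 and rho = 0.865 (r = 0.886 without the 2 tumours farthest from the median of Cxcl1). Across the kinds of gene the closest pairs were Cxcr2 with Cxcl5, a receptor and its ligand, with r = 0.889 and rho = 0.877, and S100a9 with Cxcl3, with r = 0.886 and rho = 0.881.

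Of the 5 neutrophil genes Csf3r had the lowest r with each attractant except Cxcl5. With Cxcl5 its r was 0.636 and that of Retnlg 0.586 (permutation adjusted p = 0.00039 and 0.000995). With Cxcl3 the r of Csf3r was 0.578 (permutation adjusted p = 0.0018). Its r was 0.384 with Cxcl1 (permutation adjusted p = 0.0394, rho = 0.411), 0.472 with Cxcl2 (permutation adjusted p = 0.011, rho = 0.412) and 0.35 with Csf3, its own ligand (permutation adjusted p = 0.0692, rho = 0.414). Without the 2 tumours farthest from the median of Csf3r these were 0.259, 0.344 and 0.147, so part of the relation rests on those tumours. In tumour 4 of the primary 20 Gy anti-PD-1 group Csf3r was at 179 CPM and Retnlg at 13.5 CPM, the highest and next to highest of that group, while S100a9 was at 2.93 CPM, Cxcl1 at 2.39 CPM and Cxcl2 at 1.45 CPM, each the lowest of the group.

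In the 16 allografts, given as values without a test, neutrophil genes went with neutrophil genes (median r = 0.74 over 10 pairs, from 0.48 to 0.96) and attractants with attractants (median r = 0.69, from 0.22 to 0.86). Between the 5 neutrophil genes and the 5 attractants the median was 0.25 over 25 pairs, from -0.32 to 0.81, where the primary tumours had 0.66, from 0.35 to 0.89. The difference between the kinds was not tested.

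**Figure D4:**
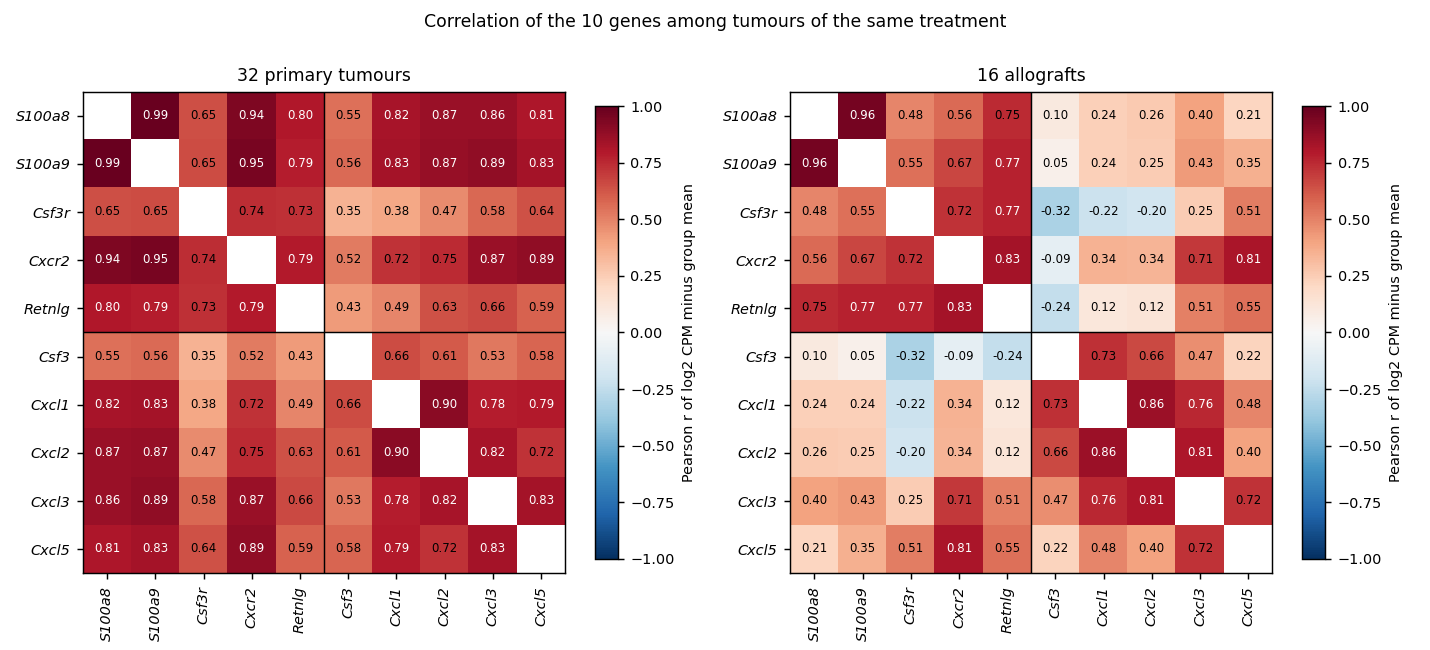
Pearson's r between each pair of the 10 genes over log2 CPM minus the group mean, in the 32 primary tumours (left) and the 16 allografts (right); black lines part neutrophil genes from attractants. In primary tumours all 45 values are positive, and in allografts the block between neutrophil genes and attractants is paler, with a median of 0.25.

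Across all 48 tumours and 19303 genes, the genes with a pattern most like these were listed by Pearson's r of log2 CPM, as a description. S100a8 was most like Mirt2 (0.90), Stfa2l1 (0.89) and Ankrd22 (0.88). Csf3r was most like Tnfsf14 (0.94), Mcemp1 (0.93) and Cd300lf (0.92). Cxcr2 was most like Mirt2 (0.94), Il1f9 (0.93) and Asprv1 (0.93), and Cxcl5 like Mirt2 (0.86), Trem1 (0.85), a receptor of myeloid cells, and Il1f9 (0.85). Cxcl1 was most like the cytokine Il6 (0.87), A230028O05Rik (0.85) and Timp1 (0.83), an inhibitor of matrix proteases, and Cxcl2 like Il6 (0.88), Gm5483 (0.87) and Gla (0.87). Cxcl3 was most like Gm5483 (0.87), Il1f9 (0.83) and Stfa2l1 (0.82). For Csf3 the nearest were further off, Cyp27b1 (0.76), Crct1 (0.73) and Gdnf (0.68). Stfa2l1 and Gm5483 belong to a family of similar genes, among which reads can be split uncertainly.

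Other genes of neutrophil life were read from lists, chosen with earlier results of these data known. Of 20 genes of mature neutrophils 14 were called higher in primary tumours after 20 Gy with isotype, 12 with anti-PD-1 and 17 after the combined treatment, with medians of 2.54, 2.06 and 2.88 on the log2 scale over the 19 tested. Of all genes 7.85%, 6.06% and 8.78% were called higher, with medians within 0.04 of 0. With isotype they were led by Acod1 (3.99 ± 0.64), which makes itaconate, Clec4e (3.14 ± 0.56), a receptor for microbial lipids, and Fpr2 (2.04 ± 0.37), a receptor for formylated peptides. After the combined treatment Acod1 (4.46 ± 0.66) and Selplg (1.47 ± 0.24), an adhesion molecule of white cells, had the smallest p of those reported here. Many of these genes are also made by monocytes and macrophages. Without the 3 primary tumours named above 11, 16 and 16 of the 20 were called higher.

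Of 11 genes of cytokines that drive recruitment 9 were tested, and 5 were called higher after 20 Gy with isotype, 7 with anti-PD-1 and 6 after the combined treatment in primary tumours (all genes 7.85%, 6.06% and 8.78%, for this list and the next pair), and 5, 7 and 7 without the 3 tumours. Tnf rose by 2.35 ± 0.38, Csf2, the gene of GM-CSF, by 3.36 ± 0.73 and Il1a by 3.00 ± 0.71 with isotype, and Csf2 by 4.31 ± 0.75 and Il6 by 3.34 ± 0.74 with anti-PD-1. Of 12 genes of other attraction pathways, 4, 3 and 4 were called higher, among them Ltb4r1, a receptor for leukotriene B4 (3.11 ± 0.51 with isotype), and C3ar1, a receptor for complement C3a (1.51 ± 0.24). Lta4h, which makes leukotriene B4 and is named after its value was seen, was called lower with isotype. Of 7 adhesion genes 3, 1 and 4 were called higher, with Itgb2, the beta 2 integrin chain of white cells, in each (1.25 ± 0.26, 1.30 ± 0.26 and 1.54 ± 0.26).

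In neutrophils granule genes are expressed earlier, in bone marrow. Of 9 late granule genes 2, 3 and 4 were called higher in the primary tumours, with Mmp8, a collagenase of neutrophils (3.36 ± 0.83 with isotype and 5.64 ± 0.92 for the combination), and Cd177, a surface protein of neutrophils (2.15 ± 0.67 and 3.52 ± 0.70), in each. The count with isotype was 1 without tumour 3 of the irradiated group, and that with anti-PD-1 was 5 without tumour 4 of the unirradiated group. Without the 3 tumours together the counts were 2, 4 and 4. In primary tumours the list's summed level had medians of 220 CPM at 0 Gy and 157 CPM at 20 Gy with isotype. With anti-PD-1 the medians were 218 and 502 CPM. In tumour 1 of the primary 0 Gy isotype group the sum was 2031 CPM, where the 5 neutrophil genes summed to 33.0 CPM. Which cells made these transcripts was not tested. Of 6 early granule genes, 1, 2 and 2 were called higher, with Cebpe, a transcription factor of granule formation, in each (2.95 ± 0.55, 2.51 ± 0.53 and 3.18 ± 0.55). The shares of all genes called higher were again 7.85%, 6.06% and 8.78%.

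In the allografts 6, 2 and 9 of the 20 mature neutrophil genes were called higher, beside 4.40%, 3.13% and 7.43% of all genes, with medians of 0.75, 0.85 and 1.61, and the formylated peptide receptors Fpr1 (3.28 ± 0.56, 2.53 ± 0.54 and 3.36 ± 0.56) and Fpr2 (1.94 ± 0.41, 1.57 ± 0.41 and 2.58 ± 0.42) among them in each. Without tumour 3 of the 0 Gy anti-PD-1 group 6, 4 and 9 were called. The recruitment cytokines gave 3, 0 and 4 called higher of 11, with Csf2 (2.43 ± 0.55) and Tnf (2.00 ± 0.53) among those with isotype. Of the 7 adhesion genes 2, 1 and 3 were called higher, with Icam1, a ligand of the beta 2 integrins, in each (1.59 ± 0.23, 1.01 ± 0.23 and 1.63 ± 0.23) and Itgb2 with isotype (1.38 ± 0.35) and in the combination (1.53 ± 0.35). Of the 12 genes of other attraction pathways 1, 1 and 2 were called higher, with C3ar1 in each (1.78 ± 0.34, 1.81 ± 0.34 and 1.97 ± 0.34); without that tumour 3 they were 1, 2 and 3, and the adhesion genes 2, 1 and 4. Ngp was called lower with isotype (-7.28 ± 1.99), the single late granule gene called in the treated allografts; without the same tumour 2 late granule genes were called lower with isotype, 1 higher with anti-PD-1 and 1 lower after the combination. At baseline 10 of the 20 mature neutrophil genes were lower in primary tumours and 0 higher, beside 3.99% of all genes called lower, among them Slpi (-3.52 ± 0.38), a protease inhibitor, and Mcemp1 (-1.92 ± 0.33).

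Markers of other cells moved as well, and their part in these results was not tested unless stated. Of 11 monocyte and macrophage genes 6, 4 and 5 were called higher in treated primary tumours (Fcgr1 1.75 ± 0.30 and Ly6c2 3.05 ± 0.59 with isotype), Cx3cr1, a receptor of resident macrophages named after its value was seen, was called lower after the combination, and 3, 3 and 7 were called higher in treated allografts. The shares of all genes called higher were 7.85%, 6.06% and 8.78% in primary tumours and 4.40%, 3.13% and 7.43% in allografts. Their summed level was 1557 to 3342 CPM in unirradiated and 900 to 5864 CPM in irradiated primary tumours. Of 4 eosinophil genes Siglecf and Ccr3 were called higher in all 3 treated primary groups, at a summed level of at most 13.2 CPM in any primary tumour. No mast cell, T cell, B cell, keratinocyte, muscle or red cell gene was called in these 6 comparisons. Of 6 endothelial genes 1, 0 and 1 were called higher in treated allografts, each time Kdr, a receptor for VEGF (1.22 ± 0.28 with isotype, adjusted p = 0.0204, and 0.92 ± 0.28 for the combination, adjusted p = 0.0477), and 0 in treated primary tumours; without tumour 3 of the allograft 0 Gy anti-PD-1 group the counts in allografts were 1, 0 and 0. Their summed level ran from 215 to 380 CPM in unirradiated and from 256 to 481 CPM in irradiated allografts. Of the keratinocyte markers Krt5 was at or below 0.951 CPM and Krt14 at or below 0.836 CPM in every tumour.

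Skeletal muscle, in which the tumours grew, had uncalled medians of 2.18, 2.78 and 2.85 on the log2 scale in the 3 treated primary comparisons. Its 7 genes summed to 40.3 to 6489 CPM in unirradiated and 9.0 to 64645 CPM in irradiated primary tumours. The medians of this sum were 1418 CPM at 0 Gy and 1044 CPM at 20 Gy with isotype, and 986 and 1380 CPM with anti-PD-1. The highest sums were 37258 CPM in tumour 4 of the 20 Gy isotype group and 64645 CPM in tumour 4 of the 20 Gy anti-PD-1 group. With the log2 muscle level as a covariate Csf3r was 1.93 with isotype (adjusted p = 0.00328) and 1.66 with anti-PD-1 (adjusted p = 0.0151), Cxcl2 was 3.96 and 3.43 (adjusted p = 0.0029 and 0.00952), and Cxcl1 with isotype was 2.32 and called (adjusted p = 0.0331). Without the covariate these differences were 1.96 and 1.73 for Csf3r, 3.25 and 3.25 for Cxcl2, and 1.67 and uncalled for Cxcl1 (adjusted p = 0.112).

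**Figure D5:**
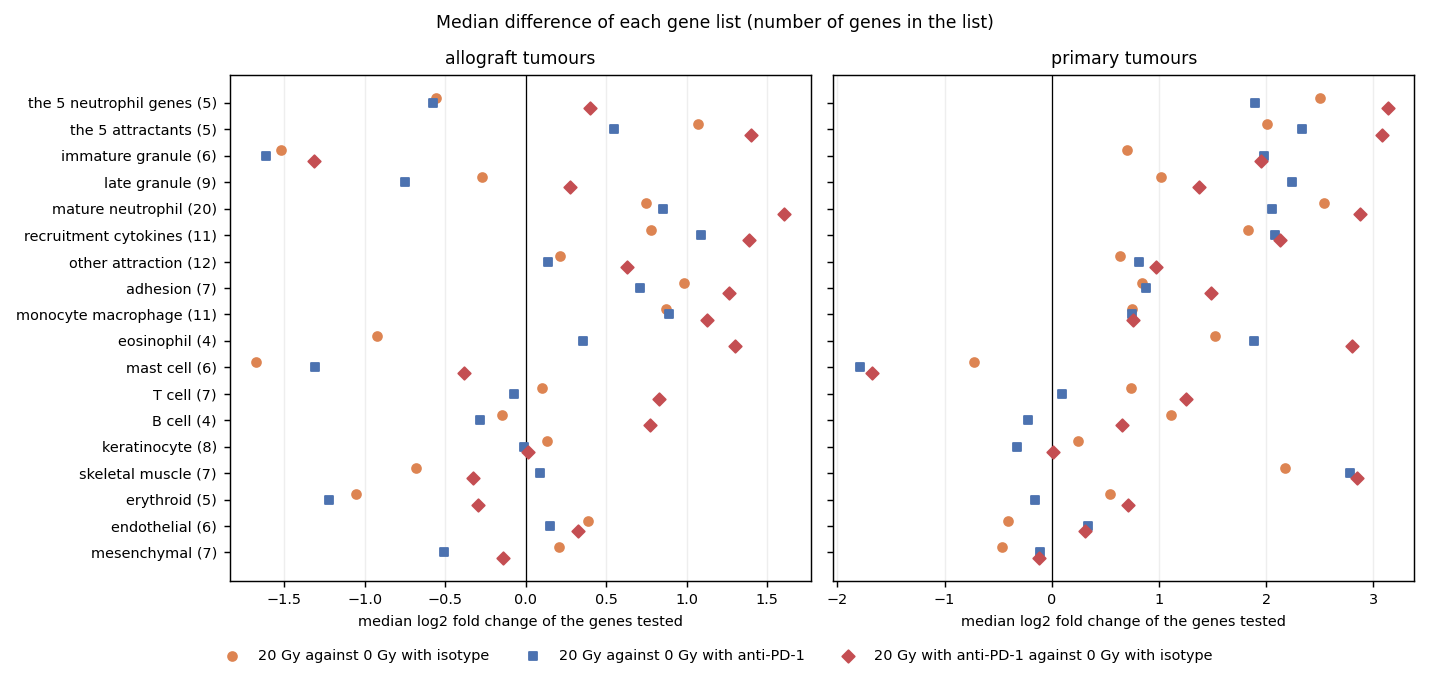
Median log2 fold change over the tested genes of each list (number of genes in brackets) for the 3 treated comparisons, in allografts (left) and primary tumours (right). In primary tumours the neutrophil genes, the attractants, the mature neutrophil genes and the recruitment cytokines lie right of 0 in all 3 comparisons, and so does skeletal muscle, of which no gene was called.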

How the data were processed

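Poly(A)-selected, strand-specific RNA-seq of 48 tumours was analysed, from RNA with an integrity number above 7, per the labels' protocols. The authors deposited 1 table of raw counts per Ensembl gene. Per the submitters' processing notes, Trimmomatic 0.36, STAR (version given as 5.5.4b), HTSeq and mm10 were used; which gene annotation was counted, and if strand entered the counting, is not given in the sources used here. Symbols came from GENCODE M21 (36796 of 36854 identifiers; 58 had none). There were 0 columns of unlisted samples. Counts of the 136 pairs of tumours within groups had chi-square values of 85.6 to 995 for each degree of freedom, far beyond sampling noise, so none was a duplicate. Groups came from the labels; replicate numbers, in accession order, only name tumours. Nothing in the labels says more of how tumours of a group were separated, so p-values measure the spread between these samples.

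Counts were filtered with filterByExpr, scaled by TMM and tested with edgeR 4.0.16 (quasi-likelihood F test, R 4.3.3), adjusted by Benjamini-Hochberg over all genes: 17746 in the fit of the 4 allograft groups, 17770 in that of the 4 primary groups, 17357 for the 2 baseline groups and 19327 for all 48 tumours (interactions with tumour kind). SE is the log2 fold change divided by the square root of F. Comparisons that share control tumours are not independent. Pairs of genes used log2 CPM (prior count 2), 100000 permutations within groups and adjustment over 45 pairs. Alternatives were DESeq2 1.42.0 as test or for size factors, no filter, other sets of groups, covariates for muscle level and for the first digit of the animal identifier, and leaving out each tumour. The script was tested on simulated data. Intervals are not given for levels, and at 31.8 M counts or more counting error is small beside the spread between tumours except below 1 CPM. The 10 genes and all gene lists were chosen with earlier results of these data known. The genes named are the 10 in every comparison and, from each list, up to 3 called genes with the smallest p, of which 1 is not reported here; Ly6g, Mpo, Ngp and Epx in single tumours, Krt5, Krt14 and the tumours left out together were chosen after their values were seen. Python 3.11.15 with scipy 1.17.1 was used for pairs.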

Additional observations from a re-analysis of the deposited data

Results flagged for a closer look

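The gap of 1 tumour to the rest of its group, as a share of the group's range on the log2 scale, passed Dixon's 95% critical value in 9 of 80 groups of values (10 genes in 8 groups); chance alone flags about 1 in 20.

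Tumour 4 of the primary 0 Gy anti-PD-1 group was high in S100a8, at 91.2 CPM against 0.389 to 4.66 CPM in the other 7, and in Csf3r, at 103.5 CPM against 9.30 to 28.2 CPM. Tumour 3 of the primary 20 Gy isotype group was high in Cxcl2, at 92.3 CPM against 2.81 to 12.4 CPM.

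In the allografts tumour 1 of the 20 Gy isotype group was high in 3 genes: S100a8 at 33.7 CPM against 7.71 to 8.99 CPM, Cxcl1 at 33.5 CPM against 7.45 to 9.09 CPM, and Cxcl2 at 10.4 CPM against 2.96 to 3.45 CPM. In the same group tumour 2 was high in Retnlg, at 2.07 CPM against 0.720 to 0.836 CPM, and tumour 4 was low in Cxcl5, at 8.03 CPM against 13.8 to 14.6 CPM. Tumour 1 of the 0 Gy isotype group was low in Retnlg, at 1.48 CPM against 5.99 to 7.74 CPM.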

How the results depend on the processing

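Of the 150 differences (10 genes in 15 comparisons) 16 were called and none of those 16 changed sign under any alternative; 55 uncalled ones did under at least 1. Leaving out 1 tumour at a time gave 0 to 1 genes called in allografts with radiation and isotype, 0 to 1 with anti-PD-1 and 1 to 2 for the combination; 1 to 5 in primary tumours with isotype, 1 to 10 with anti-PD-1 and 2 to 7 for the combination; and 1 to 4 at baseline. The 10 were reached without tumour 4 of the primary 0 Gy anti-PD-1 group and the 1 without tumour 6 of the 20 Gy anti-PD-1 group; leaving out any other tumour of that 0 Gy group gave 2, and leaving out tumour 3 or 7 of the 20 Gy anti-PD-1 group 3. The combination gave 2 without that tumour 6. In primary tumours with isotype the count was 5 without tumour 7 at 0 Gy, 1 without tumour 3 at 20 Gy, and 4 without tumour 2 or tumour 8 at 20 Gy. At baseline it was 4 without primary tumour 7 and 1 without allograft 2, 3 or 4, Csf3r being the gene lost. In allografts it was 1 with isotype without tumour 3 at 0 Gy, 0 with anti-PD-1 without tumour 2 or 4 at 0 Gy or tumour 3 at 20 Gy, and 2 for the combination without tumour 2 at 20 Gy. The antibody comparisons and the interactions stayed at 0 in every alternative run.

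In allografts with radiation and isotype the DESeq2 test, the muscle covariate and the fit of only the groups compared each called 1 (Csf3r). With anti-PD-1 the DESeq2 test and the muscle covariate called 2, and the fits of only the groups compared and of all 48 tumours called 0. For the combination the DESeq2 test and the muscle covariate called 3 and the fit of all 48 tumours 0. In primary tumours with isotype the DESeq2 test called 5 and the fit of all 48 tumours 4. With anti-PD-1 no filter, the identifier covariate and only the groups compared each called 2. Leaving out the 3 primary tumours named above together gave 9 with anti-PD-1. For the combination the DESeq2 test called 9. At baseline the fit of all 48 tumours called 0. The causes were not tested, and the shares of all genes called in these alternative fits are not given here. Csf3 reversed in primary tumours with isotype to 0.11 with the muscle covariate and, without tumour 3 or 4 at 0 Gy or tumour 8 at 20 Gy, to 0.10, 0.40 and 0.000896 (range over tumours left out -0.31 to 0.40), and with anti-PD-1 to -0.39 without tumour 6 at 20 Gy (range -0.39 to 3.31). All 80 group means of CPM moved by less than 1 SD with DESeq2's size factors. Of the 45 pairs 44 passed with those factors and 37 without the 2 tumours farthest from the median of the first gene. Leaving out the 3 tumours together was chosen after seeing the data. The identifier covariate could not be fitted at baseline. No paired analysis was possible because the labels give no replicate number shared across groups. Depth limits Csf3 and Retnlg below 1 CPM most.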
